A study of Mus musculus with 4 samples.

Results

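In mouse embryonic stem (mES) cells, the density of H3K14ac tags around the transcription start sites (TSSs) of protein-coding genes was set against the density of H3K9ac tags, gene by gene. H3K14ac was immunoprecipitated with the mouse monoclonal antibody 13HH3-1A5 (13HH3) and H3K9ac with the rabbit polyclonal antibody ab4441. A further antibody against H3K14ac, the mouse monoclonal 7G8, and input DNA without antibody are given beside them. Per the labels, all 4 libraries came from cells of the E14 line, strain 129P2/OlaHsd, whereas the methods speak of wild type cells from blastocysts, grown on feeders and then without them. There is 1 library for each antibody and 1 of input, hence no test between libraries could be made and every interval below covers counting error only. A gene was included when at least 60 H3K9ac tags fell within 2 kb on either side of its TSS, which held for 14927 of 21418 genes on chromosomes 1 to 19 (mm9, GENCODE). As windows of neighbouring TSSs overlap, the 14927 genes lie at 13245 separate loci. The measure is the log2 of the 13HH3 density over the H3K9ac density, each in tags per 10000000 tags of its library. Genes were chosen by their H3K9ac tags, and the genes at either end were chosen by the ratio itself, so that the ratios at the ends are a description of the libraries.

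Lysine acetylation removes the positive charge of the histone tail and offers a binding site to bromodomain proteins. H3K9ac and H3K14ac are both known from the nucleosomes that flank the TSSs of active genes. In ES cells, housekeeping genes generally have acetylated CpG-rich promoters, and many developmental regulators are held in a poised state with both active and Polycomb marks. The cells were checked against marker genes by their H3K9ac. Of 12 ES cell markers, 11 had at least 60 H3K9ac tags, the exception being Esrrb with 46, and the log2 H3K9ac over input of the list had a median of 2.44, from -0.00 to 4.08. Of 8 markers of feeder fibroblasts, 3 reached 60 tags, and the median was -0.03, from -0.78 to 0.99.

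Promoter sequences of 7 genes are shown first, because the ends of the ratio differed in their CpG content. They were read from the mm9 genome, run 5′ to 3′ from 250 bases before the TSS to 50 from the TSS on, and carry every CpG in capitals. Ucp3 and Tgm3 had some of the highest ratios, and Gm11735 and Rps3a had high ratios for their amount of H3K9ac. Hist1h4c, Mfsd8 and Tubb5 had the lowest ratios at 3 separate loci.
Ucp3, chr7:107621249-107621548, plus strand: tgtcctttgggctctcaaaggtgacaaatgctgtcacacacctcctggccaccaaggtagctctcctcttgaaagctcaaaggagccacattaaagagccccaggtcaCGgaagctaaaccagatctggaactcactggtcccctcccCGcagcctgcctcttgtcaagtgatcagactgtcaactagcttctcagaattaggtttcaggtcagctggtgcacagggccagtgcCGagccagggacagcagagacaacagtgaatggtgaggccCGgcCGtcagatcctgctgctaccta
Tgm3, chr2:129837835-129838134, plus strand: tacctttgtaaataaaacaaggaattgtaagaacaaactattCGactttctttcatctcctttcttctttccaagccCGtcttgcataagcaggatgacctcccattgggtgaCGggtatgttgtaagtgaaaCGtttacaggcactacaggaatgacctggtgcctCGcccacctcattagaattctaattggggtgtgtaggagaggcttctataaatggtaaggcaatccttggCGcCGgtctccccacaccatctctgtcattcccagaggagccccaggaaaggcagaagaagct
Gm11735, chr11:116611193-116611492, minus strand: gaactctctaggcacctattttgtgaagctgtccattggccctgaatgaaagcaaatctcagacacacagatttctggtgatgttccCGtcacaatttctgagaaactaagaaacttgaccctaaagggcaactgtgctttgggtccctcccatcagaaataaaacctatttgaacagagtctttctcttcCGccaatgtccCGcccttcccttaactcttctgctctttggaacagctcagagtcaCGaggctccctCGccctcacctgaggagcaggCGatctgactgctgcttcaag
Rps3a, chr3:85946575-85946874, minus strand: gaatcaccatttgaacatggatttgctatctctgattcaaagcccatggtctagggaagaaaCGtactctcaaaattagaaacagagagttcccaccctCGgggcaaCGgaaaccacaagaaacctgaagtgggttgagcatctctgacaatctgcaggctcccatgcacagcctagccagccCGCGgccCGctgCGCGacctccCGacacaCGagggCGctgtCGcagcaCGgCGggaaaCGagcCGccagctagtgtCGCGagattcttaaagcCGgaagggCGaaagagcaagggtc
Hist1h4c, chr13:23790274-23790573, minus strand: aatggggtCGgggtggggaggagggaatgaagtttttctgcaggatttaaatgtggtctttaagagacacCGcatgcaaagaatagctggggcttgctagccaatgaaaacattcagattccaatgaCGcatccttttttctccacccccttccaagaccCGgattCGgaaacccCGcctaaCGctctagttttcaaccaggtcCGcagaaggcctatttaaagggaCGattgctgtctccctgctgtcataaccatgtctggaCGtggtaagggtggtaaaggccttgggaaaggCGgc
Mfsd8, chr3:40650758-40651057, minus strand: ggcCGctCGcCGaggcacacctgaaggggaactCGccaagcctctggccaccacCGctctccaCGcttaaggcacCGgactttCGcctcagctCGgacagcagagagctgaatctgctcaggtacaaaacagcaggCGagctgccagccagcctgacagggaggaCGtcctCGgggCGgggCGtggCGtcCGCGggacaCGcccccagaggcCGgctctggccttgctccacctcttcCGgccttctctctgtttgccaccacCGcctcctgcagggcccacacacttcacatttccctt
Tubb5, chr17:35975202-35975501, minus strand: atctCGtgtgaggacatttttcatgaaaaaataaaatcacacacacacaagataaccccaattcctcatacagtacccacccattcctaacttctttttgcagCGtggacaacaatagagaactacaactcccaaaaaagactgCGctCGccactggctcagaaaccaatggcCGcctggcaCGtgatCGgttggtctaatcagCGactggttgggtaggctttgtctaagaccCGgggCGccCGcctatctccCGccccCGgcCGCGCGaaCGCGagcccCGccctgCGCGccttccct
The stretches of Ucp3, Tgm3 and Gm11735 hold 5, 7 and 6 CpGs, and those of Rps3a, Mfsd8 and Tubb5 hold 20, 21 and 21. That of Hist1h4c lies between them with 11.

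At most genes the H3K9ac density was above the 13HH3 density. The log2 ratio had a median of -1.30, with the middle of the distribution between -1.74 (25th percentile) and -0.77 (75th percentile), and it ran from -3.37 to 1.10. The 13HH3 density was the higher at 600 genes (4.02%), of which 95 had a 95% interval entirely above 0, whereas 12884 had an interval entirely below 0. Counts of 13HH3 tags varied less from gene to gene than those of H3K9ac. From the 10th to the 90th percentile of the genes, H3K9ac tags went from 83 to 292, 13HH3 tags from 41 to 99, 7G8 tags from 47 to 99 and input tags from 24 to 60.

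The ratio therefore followed the amount of H3K9ac, which is its denominator. Among the 645 genes with 60 to 69 H3K9ac tags, just inside the limit of 60, the median ratio was -0.17, and among the 725 genes with 50 to 59 tags, just outside it, 0.01. It was -0.64 for genes with 70 to 119 tags, -1.36 with 120 to 239, -1.83 with 240 to 479, and -1.78 for the 107 genes with 480 or more. Over the same bands from 60 to 69 upwards the median 13HH3 tags were 53, 57, 62, 78 and 151, and the median input tags were 43, 42, 38, 35 and 33. The ratio no longer decreased above 480 tags, where 13HH3 tags were highest.
A gene was counted as high or low when its log2 ratio lay 1 or more above or below the median of all 14927 genes, a rule of size and not a test. By this rule 1442 genes (9.66%) were high and 551 genes (3.69%) were low. Their intervals all lay on the same side of the median, which follows from the rule at these tag counts. Of the genes with 60 to 69 H3K9ac tags, 59.2% were high and none were low, and of those with 240 to 479 tags, 0.105% were high and 11.6% low. The counts moved with the minimum of H3K9ac tags, to 487 high and 178 low genes at 120 tags, and with 7G8 in place of 13HH3 they were 718 and 54. After subtraction of scaled input, which left 12322 genes with a value, they were 2256 and 2541.

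**Figure D1:**
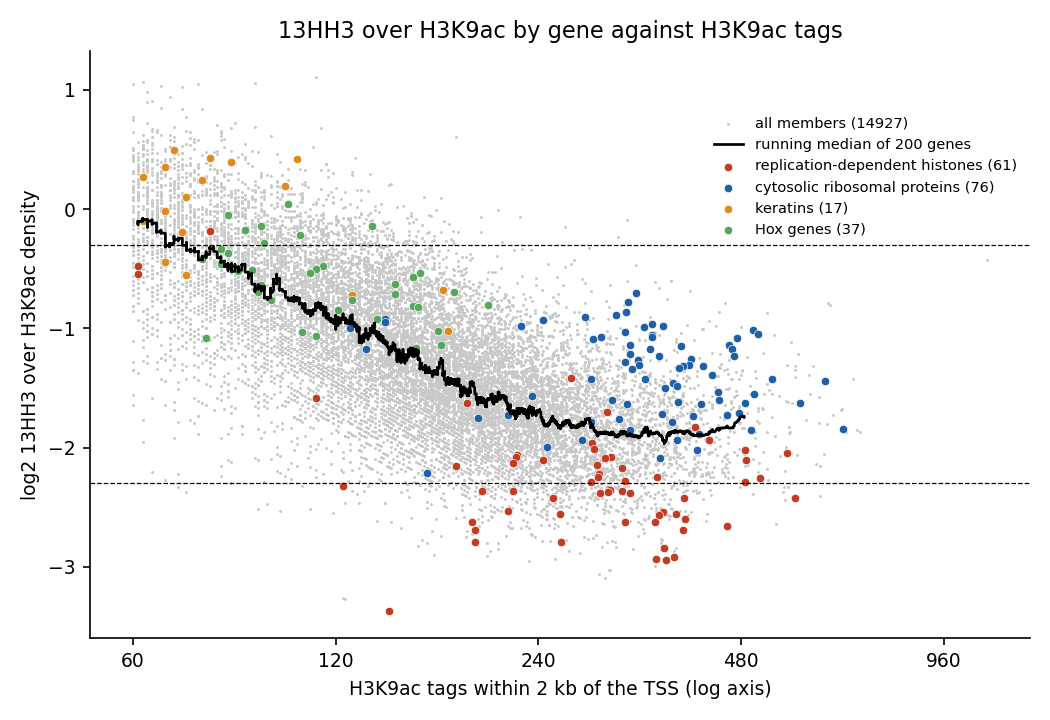
Log2 13HH3 over H3K9ac density (vertical axis) against H3K9ac tags within 2 kb of the TSS (horizontal log axis), 1 point a gene, with 4 gene lists in colour, the running median over 200 genes as a black line and the limits for high and low genes as dashed lines. The running median goes down with H3K9ac and levels off, with most ribosomal protein genes above it and most replication-dependent histone genes below it.

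At Ucp3, the mitochondrial uncoupling protein of skeletal muscle (ENSMUSG00000032942.8, TSS window chr7:107619499-107623498), 145 13HH3 tags stood against 75 H3K9ac, 65 7G8 and 62 input tags. In tags per 10000000 this is 68.5 for 13HH3 and 33.1, 28.0 and 33.2 for the others, so that 13HH3 alone stood above input, and the log2 ratio was 1.05 (95% interval 0.64 to 1.47). Tgm3, the transglutaminase of the epidermis (ENSMUSG00000027401.8, chr2:129836085-129840084), had 116 13HH3, 60 H3K9ac, 77 7G8 and 45 input tags, and its ratio was 1.05 (0.59 to 1.52). Vtcn1, an inhibitory ligand of T cells, had 126, 66, 70 and 41 tags in the same order, and a ratio of 1.03. At these genes 13HH3 stood above all other libraries, and 7G8 lay nearer to H3K9ac and input than to 13HH3.

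Further genes of this kind were Cacng1, a calcium channel subunit of muscle (116 13HH3, 63 H3K9ac, 83 7G8 and 50 input tags, log2 ratio 0.98), and Gpihbp1, which binds lipoprotein lipase on capillaries (110, 63, 78 and 68, ratio 0.90). Ftcd, an enzyme of histidine breakdown in liver, had a ratio of 0.85, Cd300c, a receptor of myeloid cells, 0.84, and Arhgef4 1.03. Arl11, an ARF-like GTPase, had 127 13HH3 against 76 H3K9ac and 34 input tags, the lowest input of the 15, and a ratio of 0.84. The other genes named by rank were Col20a1, a collagen, at 0.91, together with its neighbour 9230112E08Rik, A430093F15Rik at 0.94 together with Cd5, a surface protein of T cells, and 1700028J19Rik at 0.78.

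At 3 of the 15 loci the input itself was above 100 tags. Cd244, a receptor of natural killer cells (ENSMUSG00000004709.8, chr1:173487324-173491323), had the highest ratio of all genes, 1.10 (0.77 to 1.44), from 225 13HH3 and 112 H3K9ac tags, but 187 7G8 and 211 input tags fell in the same window. Its log2 13HH3 over input was -0.09 and its log2 H3K9ac over input -1.19, so that its ratio came with little H3K9ac relative to input and not with 13HH3 above input. Psapl1, a prosaposin-like gene (121 13HH3, 62 H3K9ac, 61 7G8 and 107 input tags), and 4931408C20Rik (177, 91, 193 and 149) were alike in this, with log2 13HH3 over input of -0.00 and 0.07. More than 100 input tags were found at 71 of all genes, and 29 of these were high.

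The lowest ratio was at Hist1h4c, a replication-dependent histone H4 gene (ENSMUSG00000060678.4, chr13:23788324-23792323), with 13 13HH3 tags against 144 H3K9ac, 55 7G8 and 23 input tags, a log2 ratio of -3.37 (-4.31 to -2.55). Its neighbour Hist1h1t shares the window in part. Mfsd8, a lysosomal membrane protein (ENSMUSG00000025759.6, chr3:40648808-40652807), had 12 13HH3, 124 H3K9ac, 35 7G8 and 15 input tags, and a ratio of -3.27 (-4.26 to -2.41). Its TSS lies 85 bp from that of 3110057O12Rik on the other strand. In both windows 13HH3 tags were the fewest of the 4 libraries, and fewer than those of input, while log2 7G8 over input was 0.94 and 0.91.

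Tubb5, a beta tubulin (ENSMUSG00000001525.9, chr17:35973252-35977251), had 33 13HH3, 301 H3K9ac, 90 7G8 and 33 input tags, and a log2 ratio of -3.09 (-3.66 to -2.57). Mdc1 of the DNA damage response starts within 4 kb of it. Trim23, a ubiquitin ligase, had 33, 295, 73 and 25 tags in the same order, and Fbxl19, an F-box protein that binds CpG islands, had 42, 358, 91 and 74. Their ratios were -3.06 and -2.99, and at Fbxl19 log2 7G8 over input was -0.02, the lowest 7G8 value among the 15.

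Of the 15 lowest genes, 7 had a divergent neighbour within 1 kb. Snupn, the snurportin that brings spliceosomal particles into the nucleus, had 28 13HH3 against 232 H3K9ac, 98 7G8 and 30 input tags (ratio -2.95). Hist1h2ad, in a group with Hist1h2ae, Hist1h2bf, Hist1h2bg and Hist1h3d, had 45 against 371, 95 and 20 (-2.95). Psmd13 of the proteasome lid, next to the mitochondrial deacetylase Sirt3, had 25 against 201, 61 and 20 (-2.91). Ndufv3 of respiratory complex I, next to the tRNA methylation factor Wdr4, had 21 against 168, 59 and 36 (-2.90). Mbd5, next to the origin recognition subunit Orc4, stood at -2.94, 2310035C23Rik at -2.89, Bcas3 at -2.87, Gpank1 with the casein kinase subunit Csnk2b at -2.87, Shc1 with the cyclin-dependent kinase subunit Cks1b at -2.86, and 1110008J03Rik with the RNA helicase Ddx54 at -2.86.

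Between the 15 highest and the 15 lowest genes, 13HH3 tags did not overlap (96 to 225 against 12 to 49), nor did H3K9ac tags (60 to 112 against 124 to 382), both of which follow from the choice. The 7G8 tags, which the choice did not use, overlapped widely, from 61 to 193 at the highest and from 35 to 112 at the lowest. Relative to input, 7G8 was the higher at the lowest genes. Log2 7G8 over input had a median of 0.09 (-1.13 to 0.73) at the highest and of 0.94 (-0.02 to 1.93) at the lowest. Log2 13HH3 over input had medians of 0.85 and -0.27. Over the included genes log2 7G8 over input rose with H3K9ac, with a median of -0.05 at 60 to 69 H3K9ac tags and of 1.08 at 240 to 479. The log2 of 7G8 over H3K9ac shares the H3K9ac tags with the ratio that chose the genes. Its median over all genes was -1.34, it ran from -0.24 to 1.05 at the 15 highest, and it ran from -2.15 to -1.28 at the 15 lowest. With 7G8, a high gene would have been at or above -0.34, which all of the 15 highest reached. A low gene would have been at or below -2.34, which none of the 15 lowest reached. By these limits 718 of the 14927 genes were high and 54 were low. Hist1h4c stood at -1.42, Mfsd8 at -1.86, Tubb5 at -1.78, and Snupn at -1.28.

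**Figure D2:**
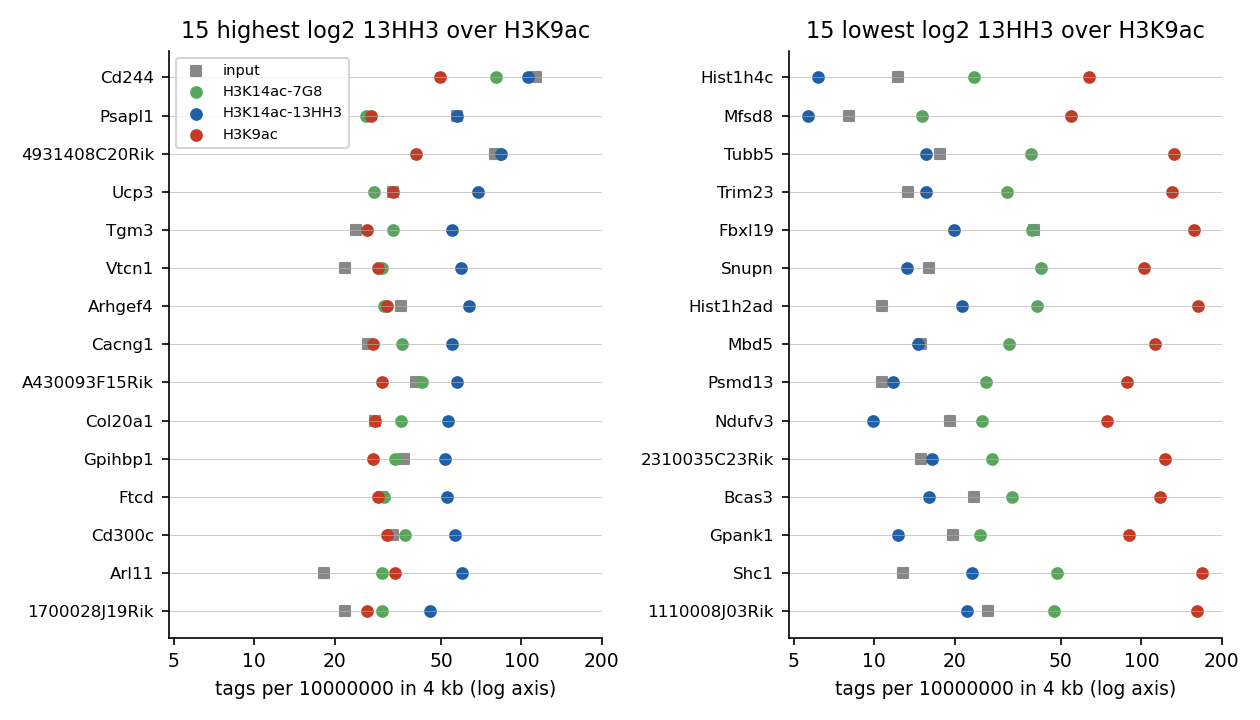
Tags per 10000000 in the 4 kb window (log axis) of the 15 genes with the highest ratio (left) and the 15 with the lowest (right), 1 point for each library. On the left 13HH3 (blue) stands at the right end except at Cd244, where input is higher, and at Psapl1, where both coincide, and it covers the 7G8 point of 4931408C20Rik, whereas on the right H3K9ac (red) stands far from the other 3 libraries.

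Since the ratio followed H3K9ac, each gene was also set against the running median of the 200 genes nearest in H3K9ac. By this distance Gm11735 was the highest, at 2.07. It had 257 13HH3 and 221 7G8 tags against 181 H3K9ac and only 34 input tags (chr11:116609243-116613242), so that both H3K14ac antibodies gave more tags than H3K9ac, with log2 13HH3 over input of 2.74 and log2 7G8 over input of 2.39. Most of its 13HH3 tags, 185 of 257, and of its H3K9ac tags, 125 of 181, lay upstream of the TSS. The other high genes by this distance all had high input. They were Cd244, Gm10717 (285 13HH3, 325 H3K9ac, 251 7G8 and 454 input tags), Gm10800 (495, 530, 524 and 602) and Gm10801 (559, 604, 534 and 717), at which no antibody stood above input. Gm10717 takes in its neighbour Gm10718, and the windows of Gm10800 and Gm10801 lie 5064 bp apart by their TSSs.

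The lowest genes by this distance were Mfsd8 (-2.35) and Hist1h4c (-2.18), followed by 3 genes with little H3K9ac. Zfp442, a zinc finger gene, had 13 13HH3 against 64 H3K9ac, 32 7G8 and 19 input tags (-2.11). Gm14124, near Gm10749, had 13 against 70, 29 and 10 (-2.08), and Tmem67, a ciliary transition zone protein, 13 against 72, 29 and 8 (-2.07). All 3 had log2 7G8 over input above 0, at 0.44, 1.22 and 1.54. Their 13HH3 counts are small, and the 95% interval of Zfp442's ratio went from -3.19 to -1.33.

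The 4 libraries were then compared over all high and all low genes. High genes had a median of 81 H3K9ac, 79 13HH3, 65 7G8 and 52 input tags, and low genes 258, 44, 76 and 29. Low genes thus had fewer input tags than the median of all genes, 38, and high genes more. Relative to input, 13HH3 was alike in both groups, with a median log2 of 0.44 in high and 0.42 in low genes and of 0.52 in all genes, whereas H3K9ac over input was 0.42 in high, 2.88 in low and 1.81 in all genes. Log2 7G8 over input was 0.00 in high genes, with 50.4% above 0, and 1.11 in low genes, with 97.6% above 0, and 0.50 in all genes. The choice did not use 7G8 but used H3K9ac, with which 7G8 over input rose. Its median was 0.09 at 70 to 119 H3K9ac tags and 1.08 at 240 to 479, and high and low genes had medians of 81 and 258 H3K9ac tags. The part of uneven input in the values over input was not tested. Across chromosomes the median 13HH3 over input ran from 0.30 on chromosome 9 to 0.93 on chromosome 12, while the median ratio of 13HH3 to H3K9ac ran only from -1.38 on chromosome 13 to -1.15 on chromosome 6.

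The average profiles showed where the tags lay. In low genes H3K9ac had a maximum of 7.39 tags per 10000000 in 100 bp at 150 bp downstream of the TSS and another of 5.25 at 250 bp upstream, with a trough between them. The 13HH3 profile of the same genes had the same outline at a lower height, 1.28 downstream and 0.77 upstream, and remained below 7G8, at 1.60 and 1.37, while input reached 0.85. In high genes H3K9ac and 13HH3 ran together, with maxima of 1.87 and 1.70 at 150 bp downstream, and 7G8 (1.03) was close to input (0.96). At the ends of the window 13HH3 stood at 0.79 in high and 0.34 in low genes, and input at 0.70 and 0.36.

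**Figure D3:**
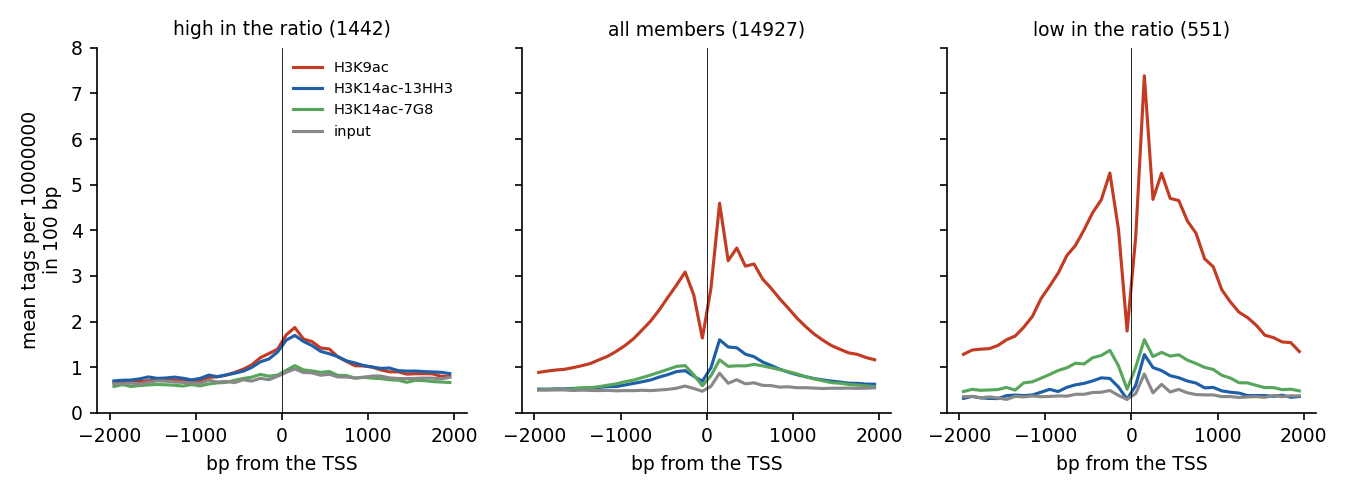
Mean tags per 10000000 in bins of 100 bp (vertical axis) around the TSS (horizontal axis, bp) for high genes, all genes and low genes, 1 line for each library. H3K9ac and 13HH3 coincide in high genes, and in low genes H3K9ac reaches 7.39 while 13HH3 stays at or under 1.28.

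Promoters of low genes more often faced another promoter. A protein-coding TSS on the other strand within 1 kb upstream was present at 1522 of all genes (10.2%), at 176 low genes (31.9%) and at 14 high genes (0.97%). Divergent promoters have more H3K9ac, and they were therefore compared within bands of H3K9ac tags. With 60 to 119 tags, the median ratio was -0.90 at divergent and -0.57 at other TSSs, with 120 to 239 tags -1.69 and -1.32, with 240 to 479 tags -1.99 and -1.79, and with 480 or more -1.87 and -1.68. The ratio was lower at divergent TSSs in each band. However, the bands did not make H3K9ac equal, as log2 H3K9ac over input was higher at divergent TSSs in each. It was 1.04 against 0.80 with 60 to 119 tags and 2.12 against 1.85 with 120 to 239. Of the 500 genes farthest below the running median at their H3K9ac, 13% had a divergent TSS, near the 10.2% of all genes. Of the 500 farthest above it, 3.4% had one. Members of a pair share most of their tags and are not separate measurements. Gene length had almost no relation with the ratio (Spearman's rho across 14927 genes -0.02).

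The ratio also went with base composition. Across the 14927 genes, whose values share libraries and overlapping windows, Spearman's rho of the ratio was 0.24 with the GC content of the 4 kb window, -0.23 with the number of CpGs and -0.36 with the observed over expected CpG. After the running median was taken off, rho was 0.45 with GC content, 0.11 with CpG number and -0.05 with observed over expected CpG. Input tags had a rho of 0.44 with the ratio and of 0.43 after the running median was taken off, and thus moved with it as GC content did. Genes were put in 4 groups by GC content, cut at its quartiles over all 14927 genes, so that the groups within a band of H3K9ac differ in size. In genes with 120 to 239 H3K9ac tags the median ratio was -1.70, -1.48, -1.26 and -1.07 from the lowest to the highest of these groups, and the median input was 29, 35, 41 and 48 tags. With 240 to 479 tags it went from -2.06 to -1.65, and input from 28 to 43. Relative to input the order was the other way, since 13HH3 over input went from 0.60 in the lowest to 0.47 in the highest GC group of the 120 to 239 band, and H3K9ac over input from 2.29 to 1.53. The part of GC content and of input in the ratio was not tested.

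**Figure D4:**
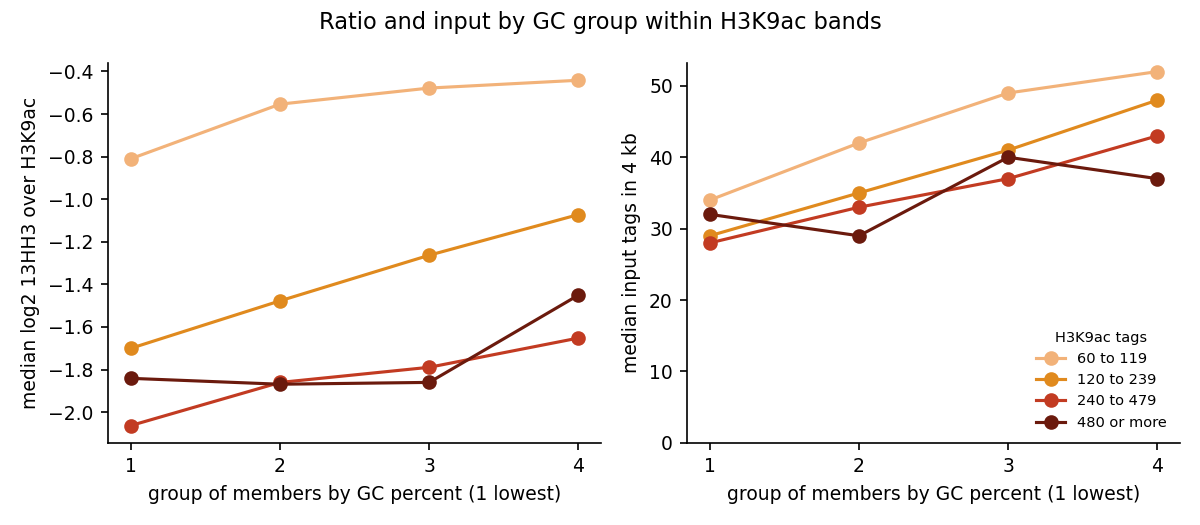
Median log2 13HH3 over H3K9ac (left) and median input tags in the 4 kb window (right) of genes in 4 groups by GC content, cut at its quartiles over all genes (horizontal axis), 1 line for each band of H3K9ac tags. Both are higher from each group to the next in the 3 bands below 480 tags, and in the band of 480 or more the last group is highest for the ratio only.

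At like H3K9ac, the 500 genes with the largest positive distance had a median GC content of 53.9% and 53.5 input tags, and the 500 with the largest negative distance 45.3% and 26 tags. Their H3K9ac tags had medians of 161 and 127, their 13HH3 tags of 119 and 29 and their 7G8 tags of 89 and 48. Log2 13HH3 over input was 1.00 and -0.04, as follows from the choice. Log2 7G8 over input was 0.36 and 0.59, so that in 7G8 over input the order of the 2 sets was the other way. Log2 7G8 over H3K9ac, which shares the H3K9ac tags with the choice, was -0.91 and -1.48, in the same order as 13HH3.

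In the 300 bases around the TSS the high genes were poor in CpG. They had a median of 6 CpGs, against 20 in low genes and 18 in all genes. The 15 highest genes had 0 to 9 and the 15 lowest 4 to 27, with the 4 at Gpank1, and a GC box (GGGCGG, on either strand) was present in 1 of the former and 13 of the latter. Over all high genes the GC box was found in 29.8%, over low genes in 63.2%, over all 14927 genes with at least 60 H3K9ac tags in 59.5%, and over the same stretch of all 21418 protein-coding genes in 43.7%. The ETS motif CCGGAAG occurred in 3.40% of high and 25.6% of low genes, against 14.9% of the 14927 genes and 10.9% of all promoters. Among the promoters above it can be read in Rps3a and, on the other strand, in the low gene Mfsd8. The CCAAT box occurred in 28.6% of high and 51.0% of low genes (36.7% of the 14927 genes, 37.6% of all promoters), and the YY1 motif AAGATGGCG in 0.0693% and 4.54% (2.42% and 1.84%). The Kaiso motif CTCGCGAGA occurred in 0.0693% and 3.27% (1.19% and 0.845%). The TATA box TATAAA occurred in 11.2% of high and 7.44% of low genes, against 7.40% of the 14927 genes and 13.5% of all promoters. Each was searched on both strands, and a match describes the letters only. At like H3K9ac the differences were largely kept for ETS (7.20% of the 500 highest and 22.4% of the 500 lowest) and CCAAT (26% and 50.6%). They were smaller for the GC box (43.6% and 56.6%), the YY1 motif (1.00% and 2.20%) and the median number of CpGs (10 and 17). Kaiso was found in 1.00% and 0.80%.

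Among 36 gene lists, the replication-dependent histone genes had the lowest median. These genes supply new histones in S phase and lie in clusters of near-identical copies. Of 67 annotated, 61 were included, at 31 loci, and their median ratio was -2.32, 1.02 below that of all genes. Low genes were 31 of the 61 (50.8%, against 3.69% of all genes), at 16 of the 31 loci, and 1, Hist1h2al, was high (64 13HH3, 78 H3K9ac, 66 7G8 and 23 input tags, ratio -0.19). The medians were similar among the types, from -2.17 for H1 (6 genes) and H2A (17) over -2.32 for H2B (16) to -2.36 for H4 (11) and -2.38 for H3 (11). Genes of different types share windows, as at Hist1h2ad, so that these medians rest in part on the same tags. The Hist1 cluster (49 genes) had a median of -2.36 and held 30 of the 31 low genes. Hist2 (9 genes, 1 low) had a median of -2.09, Hist3 (2 genes, none low) of -1.50, and the 1 gene of Hist4, not low, stood at -1.70. Median tags of the list were 57 for 13HH3, 303 for H3K9ac, 96 for 7G8 and 26 for input, and 57 of the 61 genes lay below the running median at their H3K9ac. Divergent neighbours were present at 23 of them. How far tags of 36 bases can be placed within these copies was not tested.

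Other lists of general cell functions had medians below that of all genes. Their counts of low genes stand against 3.69% of all genes, 2.57% of genes with 120 to 239 H3K9ac tags and 11.6% with 240 to 479. Proteasome subunits, which degrade ubiquitinated proteins, had a median of -1.88 over 48 genes, with 11 low and 1 high, Psma6 at -0.20. Typical members were Psmc5 at -1.87 (102 13HH3, 400 H3K9ac, 127 7G8 and 39 input tags) and Psmc4 at -1.89 (46, 182, 50 and 32). Ribosome biogenesis factors stood at -1.86 (37 genes, 3 low), among them Npm1 at -1.86 and Polr1a, the large subunit of RNA polymerase I, at -2.64. Replication origin and fork factors stood at -1.85 (39 genes, 5 low), from Pold4 at -0.55 to the primase Prim1 at -2.77. Respiratory chain subunits stood at -1.84 (82 genes, 8 low and 3 high), with Ndufv3 the lowest and Cox8b, a cytochrome oxidase subunit of muscle, the highest at -0.23.
Mitochondrial ribosomal proteins stood at -1.83 (76 genes, 10 low, from Mrps12 at -2.66 to Mrpl23 at -0.50) and cholesterol synthesis genes at -1.81 (20 genes, 1 low, Mvd at -2.37). DNA repair factors had -1.80 (49 genes, 6 low), aminoacyl-tRNA synthetases -1.77 (34, 2 low), Mediator subunits -1.72 (29, 1 low), translation initiation and elongation factors -1.70 (62, 1 low), heat shock proteins and chaperones -1.69 (79, 5 low and 5 high) and spliceosome core subunits -1.69 (44, 4 low). For most of these lists the distance from genes of like H3K9ac was small, from -0.05 for chaperones to -0.29 for the proteasome. Cholesterol synthesis genes were the exception at -0.47, with 16 of 20 below the running median.

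Cytosolic ribosomal protein genes were as rich in H3K9ac as the histone genes but stood elsewhere in the ratio. All 76 were included, at 76 loci, with medians of 358 H3K9ac, 131.5 13HH3, 102.5 7G8 and 30 input tags. Their median ratio was -1.33, with none high or low, and 64 of 76 lay above the running median at their H3K9ac, by a median of 0.42. Rps3a had 192 13HH3 tags against 335 H3K9ac, 100 7G8 and 43 input tags, and a ratio of -0.70 (-0.97 to -0.44). Rpl38 (144, 388, 123 and 23, ratio -1.33) was typical, and Rpl18 (33, 164, 49 and 51, ratio -2.21) was the lowest. The 13HH3 tags of the list were thus 131.5 against 57 in the histone genes, at similar H3K9ac and at 7G8 medians of 102.5 and 96. GC content was 48.7% and 45.9%.
Genes of hnRNP and SR splicing factors had much H3K9ac too (338 tags) and a ratio of -1.80 over 31 genes, 0.05 above the running median, with Hnrnpr at -1.80. With scaled input subtracted, their median lay 0.16 above that of all genes, whereas it was 0.50 below it without. Immediate early genes, which respond to signals within minutes, had a median of -1.06 over 37 genes with none high or low, and lay 0.41 above the running median, with 31 of 37 above it. Their median GC content was 56.0%, against 50.1% over all genes. Fos had 105 13HH3, 235 H3K9ac, 85 7G8 and 26 input tags (-1.06), Dusp2 stood at -0.38 and Fosb at -2.22.

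Core pluripotency factors, the regulators of the ES cell state, had a median of -1.40 over 29 genes, near that of all genes, with none high or low. Sox2 had 146 13HH3, 413 H3K9ac, 81 7G8 and 31 input tags (-1.40), Fgf4 had 114, 323, 98 and 50 (-1.40), and Pou5f1 had 100, 412, 145 and 61 (-1.94). Klf4 stood at -0.92, Nanog at -1.66 and Dppa2 at -2.02, and 20 of 29 lay above the running median. Genes of histone acetyltransferases and deacetylases had a median of -1.54 (27 genes, 3 low and 1 high). They ran from Hdac7 at -0.15 to the mitochondrial deacetylase Sirt3, which shares its window with Psmd13, at -2.80. Polycomb components stood at -1.35 (27 genes), with Jarid2 at -1.35, Ring1 at -1.34 and Mtf2 at -2.32.

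Lists of genes used in particular tissues or stages formed the upper end. Keratins, the intermediate filaments of epithelia, had a median of 0.10 over the 17 of 46 genes that were included, 12 of them high (70.6%, against 9.66% of all genes). At like H3K9ac the list lay 0.43 above the running median, with 15 of 17 genes above it. Krt14 had 91 13HH3, 69 H3K9ac, 76 7G8 and 64 input tags (0.50, 0.03 to 0.97), Krt7 had 108, 101, 90 and 76 (0.20), and Krt8, which simple epithelia use, had 81, 176, 75 and 52 (-1.02). Medians of the list were 72 H3K9ac, 80 13HH3, 64 7G8 and 64 input tags, and log2 over input was 0.13 for 13HH3, 0.23 for H3K9ac and -0.20 for 7G8. The medians of the included keratins therefore lay near input in each library, while Krt8 had 176 H3K9ac against 52 input tags.

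Developmental regulators stood between the keratins and the bulk of genes. Wnt and Fgf ligands had a median of -0.53 over 35 genes (8 high) and Hox genes of -0.57 over 37 (7 high). Developmental transcription factors outside Hox had a median of -0.67 over 147 (39 high), and none of these lists held a low gene. The high genes were 22.9%, 18.9% and 26.5% of their lists, against 9.66% of all genes. Among genes with 70 to 119 H3K9ac tags 25.3% were high and 0.234% low, and with 120 to 239 tags 2.42% and 2.57%. Hoxa2 had 98 13HH3, 102 H3K9ac, 52 7G8 and 43 input tags (0.04), and Hoxc9 had 98, 156, 93 and 55 (-0.57). All 37 Hox genes lay above the median of all genes, and 29 lay above the running median at their H3K9ac. The same held for 32 of the 35 ligands and 116 of the 147 developmental factors. The median distances were 0.32 for Hox genes, 0.45 for the ligands and 0.37 for developmental factors. Median GC content was 52.7%, 55.25% and 55.05% in the same order, against 50.1% over all genes, and median input tags were 40, 53 and 46, against 38. Over the 14927 genes, Spearman's rho of this distance was 0.45 with GC content and 0.43 with input tags. The part of GC content and of input in the distances of these lists was not tested. Foxn1 of the thymus epithelium stood at 0.39, Irx5 at -0.67 and Sox15 at -2.25. Wnt8b had 75, 63, 89 and 37 tags (0.35), Wnt3 stood at -0.53 and Fgf20 at -1.90. Log2 13HH3 over input was 0.65 for Hox genes, 0.61 for developmental factors and 0.49 for the ligands, and log2 7G8 over input was 0.27, 0.18 and 0.15. Hence, at these genes 13HH3 was about as far above input as over all genes (0.52), while 7G8 was less so than over all genes (0.50). The lists had less H3K9ac, with medians of 112, 134 and 128 tags in the same order against 162 over all genes, and both values rose with H3K9ac. Medians of 13HH3 and 7G8 over input were 0.27 and 0.09 at 70 to 119 H3K9ac tags, and 0.52 and 0.51 at 120 to 239.

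Collagens had a median of -0.65 over 32 genes (9 high) and ion channel genes of -0.70 over 103 (23 high). Cadherins and protocadherins had a median of -0.75 over 30 (4 high), and none of these lists held a low gene. The high genes were 28.1%, 22.3% and 13.3% of their lists, against 9.66% of all genes. Among genes with 70 to 119 H3K9ac tags, where the medians of these lists lay, 25.3% were high and 0.234% low. At like H3K9ac, collagens lay 0.26 and ion channel genes 0.22 above the running median. Cadherins and protocadherins lay 0.07 below it, with 14 of 30 above, and were thus placed like other genes with as little H3K9ac. Cdh1, the E-cadherin of ES cells and epithelia, was the lowest of its list with 62 13HH3, 247 H3K9ac, 74 7G8 and 54 input tags (-1.90), and Pcdh12 the highest at 0.43. Semaphorins and plexins stood at -0.92 (26 genes, 6 high), germline genes at -0.95 (28, 5 high), solute carriers at -1.10 (273, 42 high and 1 low), and ephrins and Eph receptors at -1.14 (21, 2 high). In this order they lay 0.17, 0.16, 0.12 and 0.07 above the running median at their H3K9ac. Median input tags were 53 for collagens and 50 for ion channels, against 38 for all genes. Log2 13HH3 over input was 0.21 and 0.08 in these 2 lists, below its value over all genes.
The remaining lists lay near the median of all genes. Imprinted genes stood at -1.27 (27 genes, 2 high and 2 low), from Grb10 at 0.47 to Zrsr1, with 50 13HH3 against 366 H3K9ac tags, at -2.77. Rab GTPases stood at -1.42 (50, 2 high and 3 low), tubulins at -1.43 (20, 2 low), kinesins at -1.47 (34, 1 high and 1 low), zinc finger Zfp genes at -1.50 (288, 4 high and 11 low) and ubiquitin-conjugating E2 enzymes at -1.53 (31, 3 low).

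**Figure D5:**
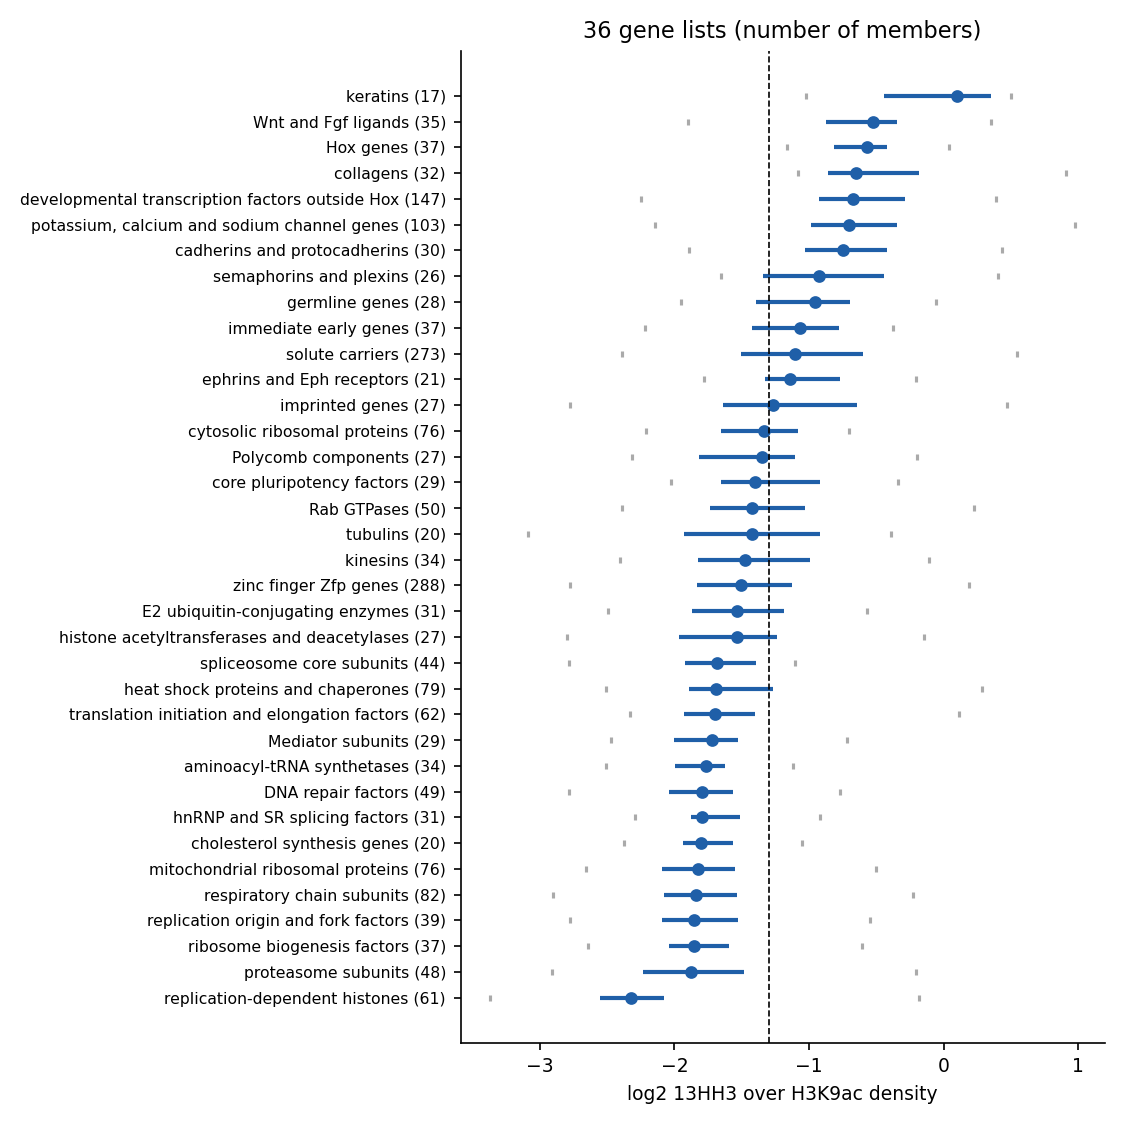
Median (point), quartiles (bar), lowest and highest value (ticks) of log2 13HH3 over H3K9ac density (horizontal axis) for 36 gene lists, with the number of genes in brackets and the median of all genes as a dashed line. Keratins are at the top at 0.10 and replication-dependent histones at the bottom at -2.32, and cytosolic ribosomal proteins lie on the dashed line.

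Families were also formed from symbols that share their first letters, of which 236 had at least 8 genes. Keratin (Krt, median 0.11), kallikrein protease (Klk, -0.14), olfactory receptor (Olfr, -0.16) and galectin (Lgals, -0.23) genes were the highest, but only 19 of 1106 olfactory receptor genes and 10 of 27 kallikrein genes had the H3K9ac tags to be included. After the histones, the lowest were the Psmd subunits of the proteasome cap (-2.19 over 14 genes, 5 low), the Tmed cargo receptors (-2.03), the anaphase-promoting complex (Anapc, -2.03) and then the Dcaf ubiquitin ligase receptors. At like H3K9ac, the homeobox Nkx (0.50) and Wnt (0.48) families were the highest, and the intraflagellar transport (Ift, -0.59) and Bardet-Biedl (Bbs, -0.59) families of the cilium the lowest. Of 12 Ift genes 4 were low, against 3.69% of all genes. Log2 7G8 over input of the Ift genes was 0.72, against 0.50 over all genes. It was 0.38 for Bbs, 0.06 for Nkx and -0.20 for Wnt. Log2 13HH3 over input was 0.58 for Nkx and 0.46 for Wnt, against 0.52 over all genes. Median GC content was 55.05% for Nkx, 56.85% for Wnt and 44.95% for Bbs, against 50.1% over all genes. Median input tags were 46, 61 and 28, against 38. The part of GC content and of input in these distances was not tested.

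At 8 of the loci which the study tests by ChIP-qPCR the TSS had enough H3K9ac. The 3 with the most H3K9ac had ratios below the median of all genes. Hnrnpa2b1, whose window takes in Cbx3, had 173 13HH3, 644 H3K9ac, 131 7G8 and 28 input tags and a ratio of -1.80 (-2.05 to -1.55). Hspd1, whose window takes in Hspe1, had 105, 407, 108 and 27 (-1.86), and B230219D22Rik had 87, 299, 89 and 20 (-1.68). All 3 were within 0.19 of genes of like H3K9ac. Genes with less H3K9ac stood higher, with Grm8 at -1.06, Sntg1 at -0.84, Gabra4 at -0.52 and Hhip at -0.42. Their distances from genes of like H3K9ac were 0.02, -0.58, -0.06 and -0.16 in the same order. Rnf25 (33 13HH3, 105 H3K9ac, 39 7G8 and 43 input tags, -1.57) lay 0.83 below genes of like H3K9ac. Tcfap2d, Dsc1 and 4930486L24Rik had 53, 26 and 36 H3K9ac tags and were not included, with 58, 36 and 49 13HH3 tags. In the same order they had 46, 45 and 60 7G8 tags and 22, 35 and 22 input tags, so that Dsc1 had about as many input as 13HH3 tags.

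Tags of the 2 strands gave separate counts from the same libraries. When the 1548 genes high on plus strand tags were read on minus strand tags, their median distance from the median of all genes went from 1.25 to 1.13, 60.4% were again high, and 99.4% lay above the median. For the 789 genes low on plus strand tags the distance went from -1.17 to -0.85, 34.3% were again low, and 97.2% lay below the median. Of all 14927 genes, 1538 were high and 817 low on minus strand tags. A smaller share was thus found again past the limit at the low end, which was also the rarer call, than at the high end. Nearly all kept their side of the median. The strands come from the same chromatin and library, so that this reading says nothing of variation between preparations.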

How the data were processed

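Chromatin of mES cells was sequenced after immunoprecipitation with antibodies against H3K9ac (ab4441) and H3K14ac (13HH3 and 7G8), with input DNA, 1 library each. Per the study's methods, fragments were gel-sized, sequenced from 1 end and aligned to mm9 with ELAND, allowing 1 mismatch. Each deposited tag spans 36 bases. The authors deposited 1 line per mapped read (tag), with its coordinates, its strand and a score that is 1 on every line and carries no normalization. The libraries held 19313927 to 23839094 tags. In the deposited 13HH3 file 738711 tags (3.30%) repeat a position and strand, and none do in the other 3. These were removed, which left 21176968 tags for 13HH3 and 22671232 for H3K9ac on chromosomes 1 to 19.

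Tags were placed 100 bp to the 3′ side of their 5′ end and counted within 2 kb of 1 TSS per protein-coding gene (GENCODE vM1, NCBIM37, the same build as mm9). Ratios used no pseudocount, and 0 tags were set to a floor of 3. The 95% intervals are exact Clopper-Pearson intervals given the sum of both counts. With 1 library per antibody no test was made and groups were not compared by p-values. Reads without molecular identifiers are not independent molecules, so that intervals and floors cover counting error only. Named genes were the 15 highest and 15 lowest ratios (TSSs within 4 kb counted as the same locus), the 5 highest and 5 lowest after taking off a running median over 200 genes nearest in H3K9ac, the ChIP-qPCR loci, and up to 4 genes of each of 36 lists. Additional genes named in the text are ES cell markers. The genes and lists were chosen with earlier results of these data known. Promoter sequences were read from the NCBIM37 genome. The counting of tags and the intervals were tested on simulated data. The tools were matplotlib 3.10.9, numpy 2.4.6, pandas 2.3.3 and scipy 1.17.1 in Python 3.11.15. Alternatives were the window, the minimum of H3K9ac tags, repeated tags, the shift, a pseudocount, input subtraction, the TSS, neighbouring TSSs, each side and strand, the other H3K14ac antibody, scaling by chromosome and windows rich in input. Expression data and peak calls were not used here.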

Additional observations from a re-analysis of the deposited data

How the results depend on the processing

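No paired analysis was possible because each antibody has 1 library and no result comes from a test. The values below are, in this order, the median log2 ratio and the numbers of high and low genes, which were -1.30, 1442 and 551. With a minimum of 30 H3K9ac tags they were -1.13, 2830 and 1172, and with a minimum of 120 tags -1.51, 487 and 178, as the minimum sets which genes enter. With scaled input subtracted they were -2.34, 2256 and 2541, and 2605 genes had no value because a library did not exceed input. With 7G8 in place of 13HH3 they were -1.34, 718 and 54. The median was -1.27 with all tags kept, -1.27 with a pseudocount of 1 tag per 10000000, -1.46 in windows of 1 kb, -1.49 in windows of 500 bp (1287 low genes), -1.18 without neighbouring TSSs within 4 kb (949 high genes), -1.26 upstream (1386 low genes) and -1.28 with tags scaled within each chromosome. Downstream tags gave 887 low genes. No tag shift, another transcript start, either strand and leaving out windows with more than 100 input tags moved none of these 3 values beyond their limits. The last and the scaling by chromosome were chosen after seeing the data. Of the 15 lists at 0.5 or more from the median of all genes, all kept their side under 15 of the 16 alternatives that keep 13HH3, and 14 with input subtracted, where hnRNP and SR splicing factors lay 0.16 above the median. Of the 30 genes with the highest and lowest ratios, those that could be computed kept their side of the median under the alternatives that keep 13HH3. This was to be foreseen, as they were chosen at the ends of the ratio and these alternatives use the same 13HH3 and H3K9ac libraries. With 7G8, 27 of the 30 moved beyond their counting interval. The 15 highest were still high, the 15 lowest were no longer low, and Snupn lay 0.056 above the median. With input subtracted 10 of the 30 could be computed. The cause of these shifts was not tested. Of the 1442 high and 551 low genes, 1311 and 470 were shared after scaling by chromosome. After input subtraction 1029 and 350 were shared, which are 45.6% and 13.8% of the genes then called. In that setting 8 genes that had been high were low. With a minimum of 120 tags 196 and 178 were shared. Genes with fewer tags had then left the comparison and the median was lower, at -1.51, so that both counts were fixed by the minimum. Among the 15 lowest genes 13HH3 tags numbered 12 to 49, and the counting interval of each ratio is set by such counts.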
